A study of Mus musculus with 12 samples.

Results

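BMP signalling and the Id genes were followed through the reprogramming of mouse fibroblasts into pluripotent stem cells. The members were chosen by symbol: the ligand genes Bmp2, Bmp4 and Bmp7, the receptor gene Bmpr1a, the secreted antagonist gene Grem1, the intracellular inhibitor gene Smad6, and the target genes Id1, Id2, Id3 and Id4. All 10 were found, of 24098 genes in the deposited expression table, and all 10 reached 1 FPKM in at least 1 library, as did 14178 genes in all. FPKM is a fragment count normalised to transcript length and sequencing depth, so that levels of different genes can be set side by side.

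Mouse embryonic fibroblasts (MEFs) from E13.5 embryos, carrying an EGFP reporter after the stop codon of Oct4 (Pou5f1), were infected with pMXs retroviruses for the 4 factors of OSKM (Oct4, Sox2, Klf4, c-Myc), with 1 mRNA-Seq library for each of 12 conditions. D0, labelled wild type, was the fibroblasts themselves and D3 the unsorted culture 3 days after induction. Sorting was by Thy-1, a fibroblast surface protein, on days 6 and 9, and by SSEA-1, found on the surface of pluripotent cells, on days 12 and 16. The fractions D6T-, D9T-, D12S+ and D16S+ made up the successful route, while the unsuccessful one comprised D6T+, D9T+, D12S- and D16S-. Fully reprogrammed iPSCs from these MEFs and mESCs, the ES-D3 embryonic stem cell line labelled wild type, were the end points. Per the labels, MEFs grew in DMEM with fetal bovine serum, while reprogramming cultures, iPSCs and mESCs were kept without serum in FF medium, which holds knockout serum replacement, N-2, LIF, bFGF, CHIR99021 and ascorbic acid. The study's methods instead name a medium with serum or one with knockout serum replacement for iPSCs and ES-D3 cells. For reprogramming they name mainly either of these or FF medium, so the medium of a given library is uncertain. By both accounts D0 differed in medium from every other library. Between D0 and the reprogramming cultures or iPSCs the effects of medium and OSKM cannot be told apart. Whether the iPSCs were 1 clone, and how many embryos or cultures lay behind a library, was not given in the sources used here. Every library is a population, and a sorted fraction can still hold several cell types.

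BMPs are secreted factors of the TGF-beta family. They bring together type II receptors and type I receptors, such as the product of Bmpr1a. The type I receptors then phosphorylate Smad1, Smad5 and Smad9, which enter the nucleus with Smad4 and switch on target genes. The Id genes are the best known of these targets. Their products lack a DNA-binding domain and hold the E proteins (from Tcf3, Tcf4 and Tcf12) and other helix-loop-helix factors off DNA. Gremlin and other secreted antagonists bind BMPs outside the cell, and Smad6 blocks the signal inside it and is itself a target gene. In mouse embryonic stem cells, BMP4 acting through Id genes is known to uphold self-renewal together with LIF.

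Promoter windows are shown for Grem1, the member with the widest range of levels, and for Id2 and Id3, which differed in opposite directions between the fractions of day 16. Each window is the 250 bases before the annotated start, from RefSeq on GRCm38.p6, written 5′ to 3′ on the strand of the gene. Capitals mark 2 short letter strings that Smad proteins are known to bind: GGCGCC, which reads the same on both strands, and CAGAC or its reverse complement GTCTG.
Grem1 (chr2:113758649-113758898, minus strand): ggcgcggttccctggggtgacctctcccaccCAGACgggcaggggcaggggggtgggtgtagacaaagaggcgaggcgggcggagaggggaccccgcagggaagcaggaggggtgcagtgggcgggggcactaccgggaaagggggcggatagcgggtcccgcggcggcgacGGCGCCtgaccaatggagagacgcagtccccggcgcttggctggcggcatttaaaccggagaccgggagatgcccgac
Id2 (chr12:25096093-25096342, minus strand): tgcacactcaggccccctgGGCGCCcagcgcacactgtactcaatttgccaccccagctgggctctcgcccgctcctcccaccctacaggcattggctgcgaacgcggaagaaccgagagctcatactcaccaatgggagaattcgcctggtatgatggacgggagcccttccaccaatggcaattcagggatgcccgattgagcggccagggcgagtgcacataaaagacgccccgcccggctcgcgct
Id3 (chr4:136143572-136143821, plus strand): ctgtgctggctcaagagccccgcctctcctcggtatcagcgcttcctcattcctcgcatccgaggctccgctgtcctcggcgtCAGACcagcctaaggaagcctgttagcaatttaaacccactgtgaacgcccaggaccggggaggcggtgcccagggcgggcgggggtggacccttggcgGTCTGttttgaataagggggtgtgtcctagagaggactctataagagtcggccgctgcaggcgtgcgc
Of 32851 mouse promoter windows of that length, 9.59% held GGCGCC and 42.2% held CAGAC or GTCTG. The Grem1 window held one GGCGCC, starting 78 bases before the start, and one CAGAC at 219. In the Id2 window GGCGCC lay at 231 bases and no CAGAC or GTCTG was found. The Id3 window had CAGAC at 167 bases and GTCTG at 68 but no GGCGCC. Of the other members with a window in RefSeq's table, Bmpr1a and Id4 each held 1 GGCGCC, and Bmp4 and Smad6 held neither string. A match is only a match of letters, and binding was not measured here. Bmp2, Bmp7 and Id1 had no window in the table.

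The identity of the libraries was checked with marker genes. The summed level of 6 fibroblast markers (Col1a1, Col1a2, Col3a1, Thy1, Twist1, Pdgfra) was 7113 FPKM in D0 and 33.4 FPKM in D16S+, with 426 FPKM in D16S-. The summed level of 6 pluripotency markers (Nanog, Esrrb, Zfp42, Dppa5a, Sall4, Tdgf1) was 2.02 FPKM in D0, 4361 FPKM in D16S+, 119 FPKM in D16S- and between 3124 and 3643 FPKM in iPSCs and mESCs. The markers thus followed the labels, though single genes carried much of the sums. Col1a1 was at 3453 FPKM in D0 and Dppa5a at 3582 FPKM in D16S+, and Thy1 encodes the protein sorted on. A list of 4 epithelial markers (Cdh1, Epcam, Cldn6, Cldn7) summed to 0.678 FPKM in D0, 503 FPKM in D16S+ and 231 FPKM in D16S-. Lists of 5 markers each for other cells were not silent. Summed levels ranged from 0.695 to 46.1 FPKM for keratinocyte, from 8.15 to 46.8 FPKM for endothelial, from 14.5 to 174 FPKM for leukocyte and from 7.14 to 298 FPKM for osteoblast markers, the first 3 being highest in D16S-. Single genes carried much of this, with Krt14 at up to 39.9 FPKM, Cd68 at up to 115 FPKM, Laptm5 at up to 57.3 FPKM and Alpl at up to 298 FPKM. Some defining markers, such as Ptprc of leukocytes and Sp7 of osteoblasts, stayed at or below 0.425 and 0.0711 FPKM. Others did not, with Tyrobp of leukocytes at 3.38 FPKM and Runx2 of osteoblasts at 10.97 FPKM in D0. Of the endothelial markers Emcn stayed at or below 0.253 FPKM. Cdh5 reached 11.8 FPKM in D0, Tek 16.5 FPKM in D9T- and Esam 32.6 FPKM in D16S-. Whether other cell types were present was not tested. Total FPKM per library ran from 484968 in D16S+ to 648264 in D0, and relative depth, read from the steps between low values, from 0.967 to 1.56 of that of D0. With 1 library per condition no difference below has a replicate check and none was tested. The only error available is the interval that the authors' program gave to each FPKM, which is modelled and does not rest on replicates of a condition.

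Bmp2, a ligand gene (mm9 chromosome 2, 133377895 to 133388621, plus strand), was highest in the fibroblasts and stayed low in every later library of the successful route. Its level was 26.4 FPKM in D0 but 0.449 FPKM in D3. Along the successful route it was listed at 0.866 FPKM in D6T-, 0.418 in D9T-, 0.387 in D12S+ and 0.0711 in D16S+, and the end points held 0.527 FPKM (iPSCs) and 0.299 FPKM (mESCs). The fractions that kept Thy-1 held more, 5.34 FPKM in D6T+ and 2.87 FPKM in D9T+, while D12S- and D16S- were at 0.662 and 1.13 FPKM. D0 was thus far above the rest, and D6T+ and D9T+ came next. The interval of D0, 1.52 to 51.4 FPKM, lay wholly above those of D3, D9T-, D12S+, D16S+ and mESCs. These were the 5 of 66 pairs of libraries whose intervals stood apart for this gene.

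Bmp4 (chromosome 14, 47003195 to 47010344, minus strand) was also below D0 up to day 9 of the successful route, but parted from Bmp2 from day 12 on. Its level was 4.08 FPKM in D0, 2.60 in D3, 2.10 in D6T- and 1.60 in D9T-, then 10.5 FPKM in D12S+, 17.2 in D16S+, 34.4 in iPSCs and 29.6 in mESCs. The unsuccessful fractions held 2.80 FPKM (D6T+), 3.47 (D9T+), 2.64 (D12S-) and 7.72 (D16S-). Every library up to day 9 was at or below D0, and the 4 libraries above 10 FPKM were the SSEA-1+ fractions and the end points. No pair of libraries had intervals apart, since these are wide for all members. In D16S+ the interval of Bmp4 ran from 0 to 36.6 FPKM. The row of Bmp4 covers a locus that also holds Gm15217 on the other strand, listed in its own row at or below 0.0864 FPKM. Gm15222, also on the other strand, overlaps Bmp4 too and has no row of its own, so reads from it cannot be told from those of Bmp4 if strand was not used.

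Bmp7 (chromosome 2, 172693513 to 172765822, minus strand) was at 2.77 FPKM in D0 and almost lost on day 3, at 0.0958 FPKM. Along the successful route it was 0.166 FPKM in D6T-, 1.15 in D9T-, 5.62 in D12S+ and 7.60 in D16S+. The unsuccessful fractions held 0.196 FPKM in D6T+, 0.498 in D9T+, 1.92 in D12S- and 2.29 in D16S-. The end points did not match, with 1.39 FPKM in iPSCs and 8.94 FPKM in mESCs, so that D16S+ was nearer in Bmp7 to mESCs than to iPSCs.

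The make-up of the ligand pool differed accordingly. Summed over the 14 ligand genes of a pathway list, ligand levels were 42.7 FPKM in D0, of which Bmp2 made up 62.0%, and 51.6 FPKM in iPSCs, of which Bmp4 made up 66.6%. In mESCs Bmp4 accounted for 67.7% and Bmp7 for 20.4%. In D16S+ the shares were 57.1% for Bmp4 and 25.2% for Bmp7, with 0.236% for Bmp2. D16S- had nearly the same ligand sum as D16S+, 30.4 FPKM against 30.1 FPKM, but its leading ligand was Bmp6, no member, with 39.9% against 25.4% for Bmp4. In D9T+ Bmp6 made up 45.7% of the sum.

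**Figure D1:**
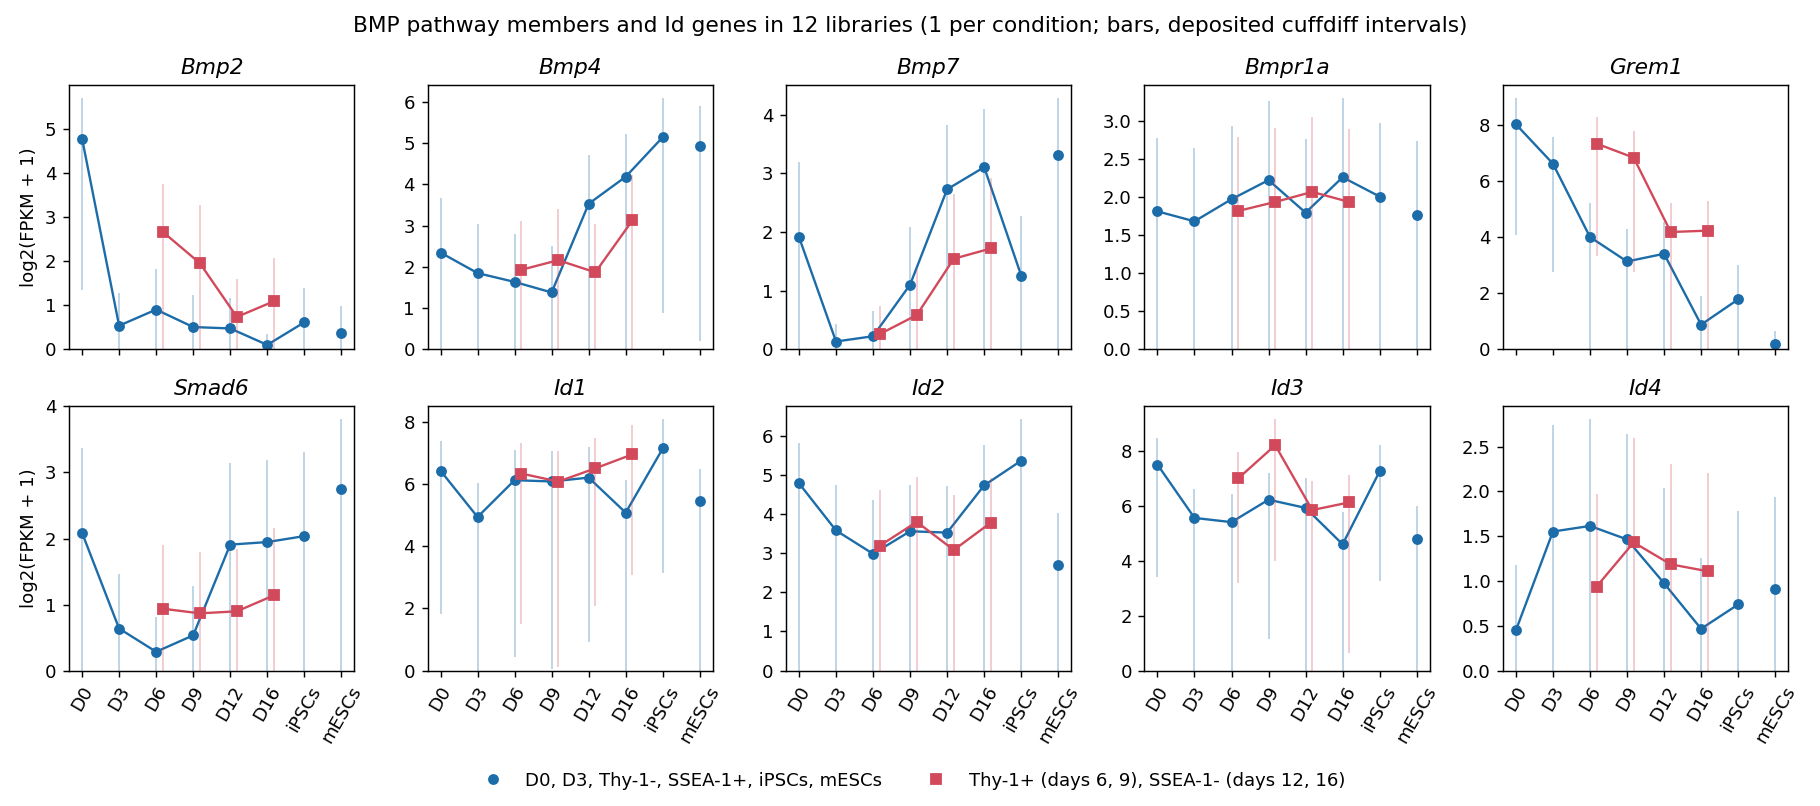
Level of each member as log2(FPKM + 1) (vertical axis, a scale of its own per panel) by day or cell type (horizontal axis). Blue points are D0, D3, the Thy-1- and SSEA-1+ fractions, iPSCs and mESCs, red squares the Thy-1+ and SSEA-1- fractions, each 1 library, and pale bars the deposited intervals. Bmp4 is highest in iPSCs (34.4 FPKM), Grem1 and Bmp2 are highest in D0, and Bmpr1a stays between 2.21 and 3.79 FPKM.

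Bmpr1a, the type I receptor gene (chromosome 14, 35223920 to 35316527, minus strand), hardly differed between libraries. Its lowest level was 2.21 FPKM in D3, its median 2.83 FPKM and its highest 3.79 FPKM in D16S+, a range of 1.72-fold. The SD of its log2(FPKM + 1) over the 12 libraries was 0.18, at the 2.30th percentile of the 14178 genes. Gm17110, on the other strand and without a row of its own, overlaps it. In none of the 10 comparisons described here did it reach a 2-fold difference.

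Grem1 encodes gremlin, which binds BMP2, BMP4 and BMP7 (chromosome 2, 113586321 to 113598803, minus strand). It had the widest range of the members, 1718-fold, with an SD of 2.55 at the 99.5th percentile of all genes. D0 held 257 FPKM and D3 96.6 FPKM. Along the successful route the level was 15.0 FPKM in D6T-, 7.73 in D9T-, 9.56 in D12S+ and 0.835 in D16S+, and iPSCs and mESCs were at 2.43 and 0.150 FPKM. The cells that kept Thy-1 were still at 159 FPKM on day 6 and 112 FPKM on day 9, whereas D12S- and D16S- were at 17.1 and 17.7 FPKM. D0, D6T+, D9T+ and D3 were thus the 4 highest libraries. The intervals of D0 and D6T+ stood above those of D16S+, iPSCs and mESCs, and those of D3 and D9T+ above those of D16S+ and mESCs, 10 of 66 pairs in all. Grem1 levels went with those of a fibroblast marker. Of the 6736 variable genes, the one most like Grem1 over the 12 libraries was Col1a1, a collagen gene (Pearson r = 0.98, n = 12). In such bulk samples fewer cells of a type and less RNA per cell cannot be told apart.

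The ratio of Grem1 to Bmp4 transcripts turned over along the route. Grem1 was 63.0 times Bmp4 in FPKM in D0, 37.2 times in D3, 7.11 times in D6T- and 4.83 times in D9T-. In D12S+ the ratio was 0.907, and in D16S+, iPSCs and mESCs Bmp4 was 20.6, 14.2 and 198 times Grem1. In the unsuccessful fractions Grem1 was above Bmp4 throughout, by 56.7 times in D6T+, 32.3 times in D9T+, 6.45 times in D12S- and 2.29 times in D16S-. These are ratios of transcript levels within a library and do not measure protein or signal. They also depend on the pair of genes, since Bmp4 was only 9.57% of the ligand sum in D0. Against that sum Grem1 was higher in D6T- (15.0 against 12.3 FPKM). It was lower in D9T- (7.73 against 12.5 FPKM), D12S- (17.1 against 19.5 FPKM) and D16S- (17.7 against 30.4 FPKM).

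Smad6, the inhibitory Smad (chromosome 9, 63800953 to 63869866, minus strand), passed through a minimum. It was at 3.25 FPKM in D0, 0.554 in D3, 0.218 FPKM in D6T- and 0.447 in D9T-, and at 2.75 FPKM in D12S+ and 2.85 in D16S+. iPSCs held 3.10 FPKM and mESCs 5.72 FPKM. The unsuccessful fractions varied little, from 0.823 FPKM in D9T+ to 1.20 FPKM in D16S-. The successful fractions were thus the lower ones on days 6 and 9 and the higher ones on days 12 and 16. The level of Smad6 went with those of the ligand genes Bmp4 (r = 0.86) and Bmp7 (r = 0.83) over the 12 libraries, which share the route.

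The 4 Id genes did not share one course. Id1 (chromosome 2, 152561987 to 152563146, plus strand) was at 84.8 FPKM in D0, 29.6 in D3, 68.5 in D6T-, 66.5 in D9T-, 72.6 in D12S+ and 32.7 in D16S+, then 140 FPKM in iPSCs and 42.3 in mESCs. In the other fractions it was 79.6 FPKM in D6T+, 66.4 in D9T+, 89.5 in D12S- and 123 in D16S-. The highest libraries were therefore iPSCs and D16S-, and the lowest D3, D16S+ and mESCs.

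Id3 (chromosome 4, 135699412 to 135701670, plus strand) followed the sort on Thy-1 more closely. It stood at 180 FPKM in D0, 46.1 in D3, 41.3 in D6T-, 73.6 in D9T-, 59.6 in D12S+ and 23.2 in D16S+, then 152 FPKM in iPSCs and 26.6 in mESCs. The Thy-1+ cells held 126 FPKM on day 6 and 294 FPKM on day 9, the highest value of any Id gene in any library, and D12S- and D16S- held 56.4 and 68.7 FPKM. As for Id1, D16S+ and mESCs were at the bottom of the order while iPSCs were near its top.

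Id2 (chromosome 12, 25778666 to 25780957, minus strand) was below Id1 in every library, and below Id3 in all but D16S+. It was at 26.5 FPKM in D0, 10.9 in D3, 6.90 in D6T-, 10.8 in D9T-, 10.5 in D12S+ and 25.5 in D16S+, with 40.1 FPKM in iPSCs and 5.50 in mESCs. The other fractions held 8.10 FPKM (D6T+), 12.9 (D9T+), 7.45 (D12S-) and 12.7 (D16S-). D16S+ was thus among the 3 highest libraries for Id2 and the lowest for Id3.

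Id4 was the least abundant, from 0.365 FPKM in D0 to 2.06 FPKM in D6T-, with a median of 1.06 FPKM. D3, D6T- and D9T- were its 3 highest libraries, and D0 and D16S+ (0.382 FPKM) its lowest. The annotated gene lies at chromosome 13, 48356796 to 48359405, plus strand, but its row in the table covers a locus of 219806 bases that also holds the antisense transcript A330033J07Rik. That transcript had its own row at or below 0.188 FPKM. Whether the counting used strand was not given in the sources used here, so the small values of Id4 are uncertain.

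Summed over Id1 to Id4, the level was 292 FPKM in D0 and 88.6 FPKM in D3. It was 119 FPKM in D6T- against 215 in D6T+, 153 in D9T- against 375 in D9T+, 144 in D12S+ against 155 in D12S-, and 81.8 in D16S+ against 205 in D16S-. The sum was thus lower in the successful fraction on all 4 days, least so on day 12. iPSCs held 332 FPKM and mESCs 75.3 FPKM, so D16S+ lay near mESCs. Id3 was the largest part of the sum in D0 (61.7%), D3, D6T+, D9T-, D9T+ (78.4%) and iPSCs. Id1 was the largest part in D6T-, D12S+, D12S-, D16S+, D16S- (59.7%) and mESCs. Id2 made up 31.2% in D16S+, and between 3.44% and 12.4% in every other library.

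Tcf3, Tcf4 and Tcf12 encode the E proteins that Id proteins bind, and their summed level ranged only from 80.1 FPKM in iPSCs to 160 FPKM in D6T-. The Id sum was 2.11 times that of these partner genes in D0, 0.741 times in D6T-, 0.946 times in D16S+, 4.15 times in iPSCs and 0.692 times in mESCs. It was 2.86 times in D9T+ and 2.16 times in D16S-.

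**Figure D2:**
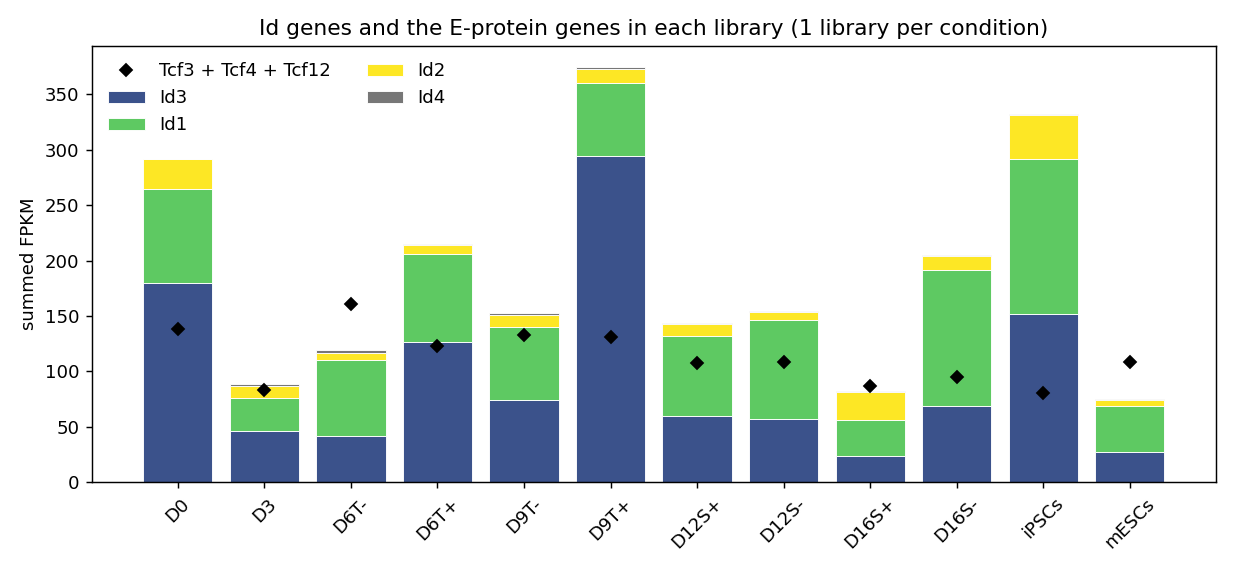
Summed FPKM (vertical axis, from 0) of Id3, Id1, Id2 and Id4, stacked, in each of the 12 libraries (horizontal axis), 1 library per condition. Diamonds are the summed FPKM of Tcf3, Tcf4 and Tcf12. The Id sum is highest in D9T+ (375 FPKM) and iPSCs (332 FPKM) and lowest in mESCs (75.3 FPKM). Id3 is the largest part in D0, D3, D6T+, D9T-, D9T+ and iPSCs, and Id1 in the others.

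For the first days of reprogramming, D3 was compared with D0. A member is counted as higher or lower where log2(FPKM + 1) differed by at least 1, that is 2-fold on this scale, where changes of weakly expressed genes come out too small. By this count 7 of 10 members were lower in D3 (Bmp2, Bmp7, Grem1, Smad6, Id1, Id2, Id3), beside 8.67% of all 14178 genes, and 1, Id4, was higher, beside 5.76%. The log2 differences of those lower ran from -4.24 for Bmp2 to -1.20 for Id2. Bmp2 was 58.9 times lower in FPKM and the only member with intervals apart, as were 0.134% of all genes. Scaling each library to the same total FPKM left 6 members lower and 1 higher, Id2 dropping to -0.95, and changed the share of higher among all genes counted from 39.9% to 56.5%. All comparisons with D0 share that 1 library and its medium.

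D16S+ and D16S- were each compared with D0, the same library, for the end of the successful and the unsuccessful route. In D16S+, 2 members were higher, Bmp4 (log2 difference 1.84) and Bmp7 (1.19), beside 20.0% of all genes, and 4 were lower, Grem1 (-7.14), Bmp2 (-4.68), Id3 (-2.90) and Id1 (-1.35), beside 20.9%. Grem1 and Bmp2 had intervals apart, as had 0.896% of genes. In D16S- none was higher, beside 12.8% of genes, and 4 were lower, Grem1 (-3.79), Bmp2 (-3.69), Id3 (-1.38) and Id2 (-1.004), beside 11.4%. None had intervals apart in D16S-, against 0.388% of genes. With equal totals D16S+ had 2 members higher and 3 lower, Id1 dropping to -0.94, and the share of higher genes went from 48.9% to 65.6%. In D16S- it had 1 higher, Bmp4 at 1.02, and 3 lower, without Id2, and that share went from 52.9% to 68.2%.

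In iPSCs against D0, 1 member was higher, Bmp4 (2.80, 8.42 times in FPKM), beside 18.7% of all genes, and 2 were lower, Grem1 (-6.24) and Bmp2 (-4.17), beside 21.6%. Only Grem1 had intervals apart, as had 0.987% of genes. Every Id gene was within 2-fold of D0, with log2 differences from -0.25 (Id3) to 0.71 (Id1), and Smad6 stood at -0.05.

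The fractions sorted on the same day address where the successful and unsuccessful routes part. On day 6, Bmp2 (-1.76), Grem1 (-3.33) and Id3 (-1.59) were lower in D6T- than in D6T+, 3 of 10 members beside 9.47% of all genes, and none was higher, beside 2.93%. On day 9 it was again Bmp2 (-1.45), Grem1 (-3.70) and Id3 (-1.98), beside 6.45% of genes, with none higher, beside 1.81%. Id1 differed by only -0.21 on day 6 and 0.0033 on day 9. In these fractions the summed fibroblast markers were 415 against 2647 FPKM on day 6 and 361 against 2178 FPKM on day 9, and their part in the differences was not tested. These sums include Thy1, the gene of the sorting marker, at 3.24 against 477 FPKM on day 6.

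On day 12 the members that differed were others. Bmp4 (1.66), Bmp7 (1.18) and Smad6 (1.01) were higher in D12S+ than in D12S-, beside 4.79% of all genes, and none was lower, beside 3.03%. Grem1 differed by -0.78 and the 4 Id genes by -0.30 to 0.44. On day 16 Bmp4 (1.06) and Bmp7 (1.39) were again higher, beside 11.8% of genes, and Grem1 (-3.35), Id1 (-1.87) and Id3 (-1.53) were lower, beside 15.2%. Smad6 (0.81), Id2 (0.95) and Bmp2 (-0.99) fell short of the count. No member had intervals apart in any of the 4 comparisons of fractions, and over all genes 0.00% had on days 6, 9 and 12 and 0.0141% on day 16. Pluripotency markers summed to 1837 against 80.7 FPKM on day 12 and 4361 against 119 FPKM on day 16, with fibroblast markers at 247 against 671 and 33.4 against 426 FPKM. On day 16 the lists of other cells differed too, at 9.71 against 46.1 FPKM for 5 keratinocyte markers, 16.6 against 46.8 FPKM for 5 endothelial markers and 81.6 against 174 FPKM for 5 leukocyte markers. The 5 osteoblast markers summed to 168 against 18.1 FPKM, of which Alpl was 168 and 13.8 FPKM. Alpl was also high in iPSCs (298 FPKM) and mESCs (231 FPKM), so this list did not single out osteoblasts. The part of these other markers in the differences was not tested.

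**Figure D3:**
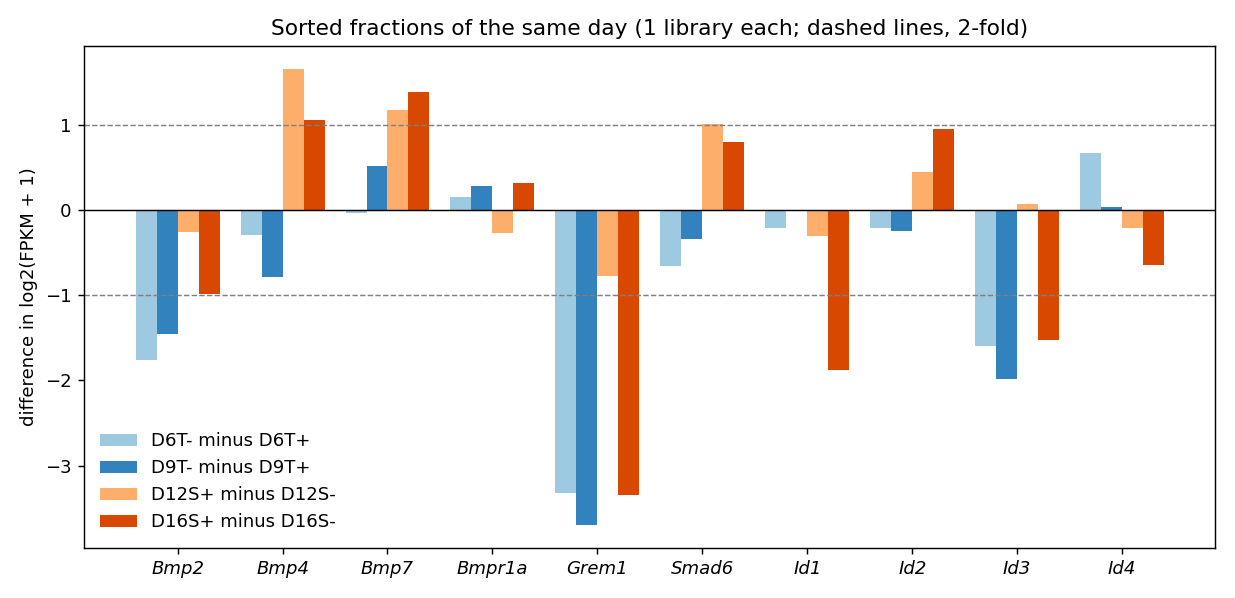
Difference in log2(FPKM + 1) (vertical axis) between the successful and the unsuccessful fraction of each day for the 10 members (horizontal axis), 1 library per fraction, bars from 0, with dashed lines at 2-fold. Grem1 is below the line on days 6, 9 and 16 (-3.33, -3.70 and -3.35), Id3 on the same days, and Bmp4 and Bmp7 are above it on days 12 and 16.

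The last step, from D16S+ to iPSCs, left the ligand Bmp4 at 0.96, just short of 2-fold. Id2 (0.63) and Id4 (0.27) were within 2-fold too. Id1 (2.06) and Id3 (2.66) were higher in iPSCs, beside 4.38% of all genes, and Bmp7 (-1.85) was lower, beside 7.77%. No member had intervals apart, as against 0.0282% of genes. With equal totals the same counts of 2 and 1 were found, while the share of higher genes went from 36.1% to 22.9%. Against mESCs, a line of other origin, iPSCs were higher in Id2 (2.66), Id3 (2.47), Id1 (1.70) and Grem1 (1.58), 4 of 10 beside 6.79% of genes, and lower in Bmp7 (-2.06), beside 7.41%. Here too no member had intervals apart, against 0.00% of genes. Bmp4, Bmpr1a and Smad6 differed by 0.21, 0.24 and -0.71. Both comparisons use the same iPSC library, so its high Id1 and Id3 count in each. By the study's methods the media of D16S+, iPSCs and mESCs may also have differed, and the part of medium was not tested.

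The rest of the pathway was read from lists of 63 genes by role, of which 53 are no members. At least 1 FPKM was reached in some library by 54, 44 of them no members. From D0 to D16S+, 22 of these 44 were lower, beside 20.9% of all genes, and 4 higher (Acvr2b, Bmp8b, Dlx3, Skil), beside 20.0%. From D0 to iPSCs 22 were lower, beside 21.6%, and 5 higher, beside 18.7%. Their median log2 difference was -0.99 and -1.01, and that of all genes 0.05 and 0.03. Between fractions 11 of 44 were lower on day 6, beside 9.47% of all genes, 9 on day 9, beside 6.45%, and 11 on day 16, beside 15.2%. On day 12 only 2 (4.55%) were lower, near the 3.03% of all genes. At most 1 of 44 (2.27%) was higher on any of these days. Of all genes 2.93%, 1.81%, 4.79% and 11.8% were higher on days 6, 9, 12 and 16. On days 6, 9 and 12 the count was thus near the share of all genes. In D3 against D0, 10 (22.7%) were lower, beside 8.67%, and 5 (11.4%) higher, beside 5.76%.

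Secreted antagonists were the role with the largest number of lower genes in D16S+ and in iPSCs against D0. Of 12 at 1 FPKM or above, Grem1 included, 9 (75.0%) were lower and none higher both in D16S+ and in iPSCs against D0, beside 20.9% and 21.6% of all genes lower, with medians of -2.05 and -1.999. Between fractions 7 (58.3%) were lower and none higher on days 6, 9 and 16, beside 9.47%, 6.45% and 15.2% of all genes lower, and 2 (16.7%) on day 12, beside 3.03%. Nbl1, whose product also binds BMPs, had 196 FPKM in D0, 14.6 in D16S+, 79.0 in D16S- and 12.1 in iPSCs. Others ran differently: Chrd, which encodes the BMP-binding protein chordin, was at 1.83 FPKM in D0, 3.82 in D16S+, 18.1 in D16S- and 0.683 in iPSCs, and Sostdc1, which encodes another BMP-binding protein, peaked at 17.1 FPKM in D9T+ from 0.0287 FPKM in D0. Nog, the gene of noggin, stayed at or below 0.603 FPKM.

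Among the receptor genes Acvr2a, like Bmpr1a, differed little, from 0.581 to 1.39 FPKM, and the widest ranges on the log2(FPKM + 1) scale were those of Acvrl1 and Acvr2b. Acvrl1, a type I receptor gene known for its role in vessels, was at 33.0 FPKM in D0, 1.70 in D16S+ and 1.31 in iPSCs. Acvr2b, a type II receptor gene, went the other way, at 0.652 FPKM in D0, 11.4 in D16S+ and 15.8 in iPSCs. Rgma and Rgmb, whose products are BMP co-receptors, were at 136 and 97.2 FPKM in D0 and at 3.60 and 5.91 FPKM in D16S+. The signal carriers differed less. Smad4 ranged from 19.2 FPKM in D0 to 29.7 FPKM in D6T-, Smad1 from 5.09 FPKM in D16S+ to 11.6 FPKM in D0, and Smad5 from 3.68 FPKM in iPSCs to 11.8 FPKM in D9T-.

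Target genes outside the Id family did not move as a block. Smad7, an inhibitory Smad, was lowest in D6T- (2.29 FPKM) and D9T- (2.64 FPKM), as Smad6 was, and stood at 17.5 FPKM in D0, 13.0 in D16S+ and 6.46 in iPSCs. Msx2 and Dlx3, homeobox genes, were highest in iPSCs at 9.23 and 6.57 FPKM, from 1.64 and 0.205 FPKM in D0. Msx1 and Atoh8 were at 3.97 and 4.97 FPKM in D0 and at 0.596 and 0.0827 FPKM in D16S+. From D16S+ to iPSCs, 4 of the 12 targets at 1 FPKM or above were higher (Id1, Id3, Msx2, Dlx3), beside 4.38% of all genes, and none lower, beside 7.77%, with a median of 0.41 beside -0.01 for all genes.

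**Figure D4:**
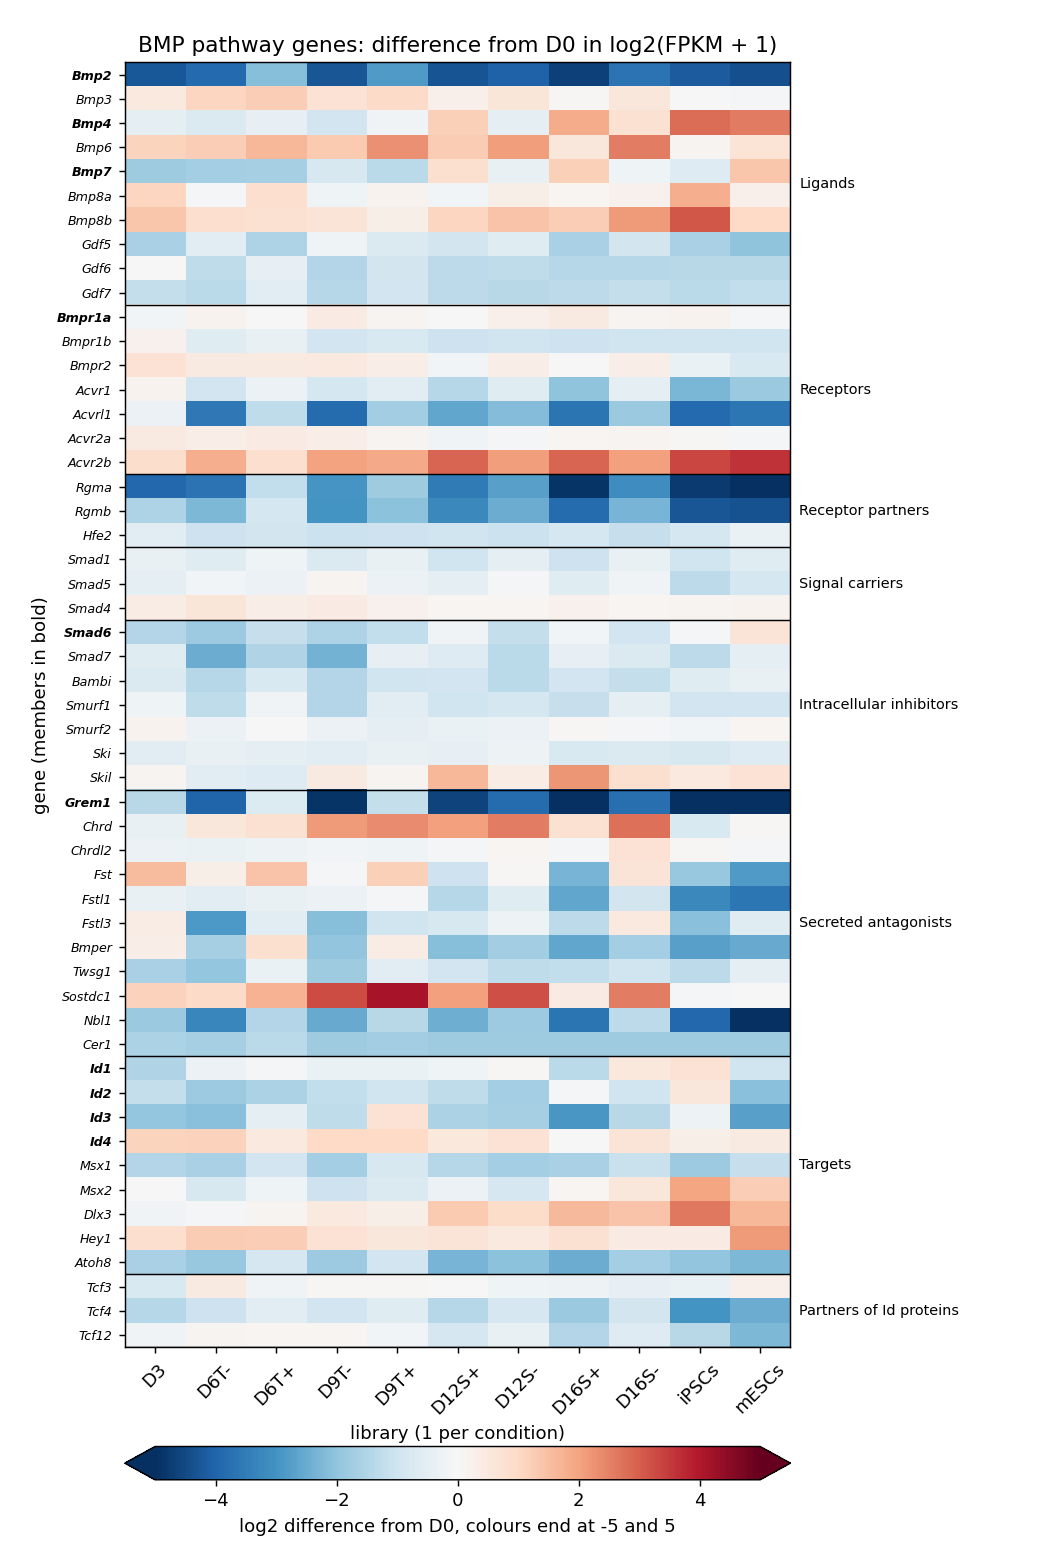
Difference from D0 in log2(FPKM + 1) (colour, limits at -5 and 5) of 53 of the 54 pathway genes with at least 1 FPKM in any library (rows, grouped by role, members in bold) in the other 11 libraries (columns), 1 library each; a gene on several lists is drawn once. Blue is lower than D0 and red higher: Grem1, Rgma and Nbl1 are blue along the successful route, and Acvr2b and Bmp4 are red in D16S+, iPSCs and mESCs.

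The genes most like each member were sought over the 12 libraries among 6736 genes with an SD of at least 0.5. For Bmp2 they were Agtr2, Gfi1 and Col24a1 (r from 0.97 to 0.98), and for Grem1 Col1a1, Timp2 and Arhgap24 (all 0.98). For Bmp4 they were Pramef12, Ccdc112 and Tmem253 (all 0.97), for Bmp7 Ptdss2, Iqcb1 and Osbpl10 (0.93 to 0.94), and for Smad6 Ephb3, Trp53i11 and Galt (0.95 to 0.96). Likeness was weakest for Id1, whose closest genes were Ntn1, Tfap2a and Pwwp2b (0.67 to 0.69). Id2 was closest to Slc20a1, Sdk2 and Arg2 (0.83 to 0.86), Id3 to Tle2, Zmiz1 and Ltc4s (0.83 to 0.87), and Id4 to Spn, Ptp4a3 and Sowahc (0.92). Bmpr1a, with little range to compare, was closest to Ogt, Zbed6 and Lars2 (0.79 to 0.80). Among the members themselves Bmp2 went with Grem1 (0.76), Bmp4 against Grem1 (-0.70), Smad6 against Id4 (-0.81), and Id1 with Id3 (0.58). These correlations describe 12 libraries that share a time course and 1 processing run, and they were picked as the highest among 6736 genes.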

How the data were processed

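Messenger RNA of 12 mouse cell populations was sequenced, 1 library per condition, with groups taken from the titles in the labels. Per the labels the libraries were made with a stranded TruSeq mRNA kit, while the study's methods name a TruSeq RNA kit. The authors mapped reads to mm9 with STAR, removed reads with more than 2 mismatches or more than 1 locus, and estimated expression with Cuffdiff. The deposited values are FPKM, each with a lower and an upper interval end (95% by the program's default). Versions, annotation, library scaling and strand setting are not given in the sources used here. That last filter lowers genes with close paralogs or pseudogenes. Columns were matched to libraries by day and sign of the sorting marker, "pos" and "neg" read as that sign. The 12 columns of status words were not used.

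Differences were taken on log2(FPKM + 1) over 14178 genes with at least 1 FPKM in any library and counted from 2-fold. No test was run and no p-value is given, since there are no replicates. Likeness is Pearson's r of log2(FPKM + 1), and the genes named are the members, the pathway lists and the 3 most like each member. One gene of the lists is in the counts but is not reported here by name. The members, lists and rules were chosen with earlier results of these data known. Absolute depth is unknown, and relative depth was read from the most common ratio of values under 0.5 FPKM. Alternatives were a pseudocount of 0.1, no filter on low values, scaling to equal total FPKM, scaling by the median of ratios, a threshold of 4-fold and, for likeness, Spearman's correlation. The counting, scaling and likeness functions were tested on simulated data. Gene positions are from GENCODE M1 on mm9, 1-based. Promoter windows are from RefSeq on GRCm38.p6, where 7 of 10 members matched by symbol, and no position was carried from one build to the other. Python 3.11.15, numpy 2.4.6, pandas 2.3.3, scipy 1.17.1 and matplotlib 3.10.9 were used.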

Additional observations from a re-analysis of the deposited data

Results flagged for a closer look

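Each result here stands out because a difference in log2(FPKM + 1) had opposite signs under 2 like contrasts, with at least 1 of them past 2-fold. With 1 library per fraction, the difference between the contrasts was not tested. For Bmp4 the successful minus the unsuccessful fraction was -0.29 on day 6 and -0.78 on day 9 but 1.66 on day 12 and 1.06 on day 16. For Bmp7 it was -0.036 on day 6 against 1.18 on day 12 and 1.39 on day 16, and relative to D0 Bmp7 stood at 1.19 in D16S+ and at -0.20 in D16S-, the latter becoming 0.021 with libraries scaled to equal totals, so that the opposite sign is lost. Smad6 was at -0.65 on day 6 and -0.33 on day 9 against 1.01 on day 12. The sort was on Thy-1 on the first pair of days and on SSEA-1 on the second, so day and marker cannot be told apart.

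Id3 was at -1.59 on day 6, -1.98 on day 9 and -1.53 on day 16 but at 0.078 on day 12. Id1 was at 0.0033 on day 9, which became -0.0080 with scaling by the median of ratios, and -1.87 on day 16, and relative to D0 it stood at -1.35 in D16S+ and 0.53 in D16S-. The near-zero members of these pairs (Bmp7 on day 6, Id1 on day 9, Id3 on day 12) have a sign but hardly a size.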

How the results depend on the processing

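No paired analysis was possible because each condition had 1 library, and for the same reason no replicate could be left out. Of 300 recomputed log2 differences of members (10 members, 10 comparisons, 3 alternatives of pseudocount and scaling), none of those past 2-fold changed sign and 283 moved by less than 1.5 times in fold. The sign changed in 7, all small. With equal totals these were Bmpr1a in D3 (-0.13 to 0.056), Smad6 (-0.14 to 0.17) and Id2 (-0.053 to 0.35) in D16S+, Bmp7 in D16S- (-0.20 to 0.021) and Smad6 in iPSCs (-0.050 to 0.13), each against D0, and Smad6 from D16S+ to iPSCs (0.090 to -0.040). With the median of ratios it was Id1 on day 9 (0.0033 to -0.0080). All 17 that moved did so with a pseudocount of 0.1, which widens differences of low genes. With it the members counted past 2-fold were 5 on day 6, 5 on day 9, 8 on day 16 and 5 from D16S+ to iPSCs. The pathway genes were 27, 21 and 30 on days 6, 9 and 16 and 18 between iPSCs and mESCs. The counts over all 14178 genes rose too, with 938 higher and 2059 lower on day 6 and 739 and 1494 on day 9. They were 2463 and 3049 on day 16, 1026 and 2112 from D16S+ to iPSCs, and 1662 and 1790 between iPSCs and mESCs.

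At a threshold of 4-fold, fewer genes pass by construction. The members left were 1 in D3, 3 in D16S+ and 2 in D16S- against D0, 1, 1, 0 and 1 between fractions on days 6, 9, 12 and 16, and 3 between iPSCs and mESCs. The pathway genes left were 2 in D3, 15 in D16S+, 10 in D16S- and 16 in iPSCs against D0. Between fractions 5, 3, 0 and 5 were left, with 2 from D16S+ to iPSCs and 4 between iPSCs and mESCs. Of all 14178 genes, those higher and lower at 4-fold were 216 and 350 in D3 and 1000 and 1129 in D16S+ against D0. They were 744 and 418 in D16S- and 877 and 1304 in iPSCs against D0. Between fractions of days 6, 9, 12 and 16 they were 41 and 349, 16 and 231, 128 and 12, and 385 and 555. From D16S+ to iPSCs they were 65 and 244, and between iPSCs and mESCs 175 and 135. Scaling to equal totals moved the median log2 difference of all genes from -0.02 to 0.12 in D3, 0.05 to 0.35 in D16S+, 0.00 to 0.19 in D16S- and 0.03 to 0.18 in iPSCs against D0, and from -0.01 to -0.14 from D16S+ to iPSCs. It also brought Bmp2 (-1.002) and Id2 (1.06) past 2-fold between the fractions of day 16. Scaling by the median of ratios took Id2 in D16S- to -0.99. Of the 30 genes named as most like a member, 13 were shared with a pseudocount of 0.1 and 5 with Spearman's correlation.

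Precision is limited by 1 library per condition and by wide modelled intervals. Folds are least certain below 1 FPKM, where Bmp2, Bmp7, Smad6 and Id4 often lay.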
